A study of Mus musculus with 10 samples.

Results

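The genes described are 10 liver genes of foreign-compound sensing and oxidation, taken by gene symbol from a table of 47729 genes. They are the receptors Nr1i2 (PXR), Nr1i3 (CAR) and Ahr, the receptor partner Rxra, the electron donor Por, and the cytochrome P450 genes Cyp1a1, Cyp1a2, Cyp3a11, Cyp3a13 and Cyp3a25. All 10 were found once each. The livers came from female mice lacking Etnppl throughout the body (KO) and from wild-type females (WT), 5 samples of each. Etnppl encodes a lyase that breaks down phosphoethanolamine. Chow was fed for 8 weeks and was followed by 10 weeks on a diet in which fat supplied 45% of the kilocalories, so the WT livers are also livers of fat-fed females. Poly(A)-selected RNA was sequenced in paired ends, and values are FPKM, sequenced fragments scaled to transcript length and library depth. The sources used here give neither strain nor deleted region.

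PXR, CAR and the aryl hydrocarbon receptor are transcription factors that hepatocytes use to register drugs, bile acids, plant compounds and aromatic pollutants. PXR and CAR bind DNA as pairs with RXR alpha and are best known for raising Cyp3a and Cyp2b genes, whereas the aryl hydrocarbon receptor pairs with ARNT and raises Cyp1a genes. The P450 enzymes sit in the endoplasmic reticulum and oxidise these compounds with electrons passed to them by the reductase that Por encodes.

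Etnppl lay between 7.36 and 10.19 FPKM in the KO livers and between 27.57 and 56.55 FPKM in the WT livers, so each library matched its label (limma adjusted p = 0.000387). Depth, fitted from the spacing of low FPKM, was 21100000 to 28400000 fragments per library. Of the hepatocyte markers, 9 of 10 were in the table and summed to 61449 to 73260 FPKM in WT and 68405 to 80375 FPKM in KO. KO replicate 3 stood apart by pancreatic acinar genes, whose 8 markers summed to 155 FPKM there and to at most 1.7 FPKM in any other library. WT replicate 2 had the highest stellate cell and fibroblast sum, 220.5 FPKM against at most 177 FPKM in the others (8 markers), and the lowest pericentral hepatocyte sum, 7391 FPKM against at least 8339 FPKM (9 markers). Its erythroid and lymphocyte sums were also the highest, 789 against at most 597 FPKM (5 markers) and 11.5 against at most 8.9 FPKM (8 markers). Kupffer cell, sinusoidal endothelial and cholangiocyte sums were highest in other libraries. The 5 intestinal markers summed to 93.9 to 122 FPKM in WT and 60.6 to 96.3 FPKM in KO, with the defining Lct, Sis and Alpi at 0 throughout. Nothing in the labels states that the numbered samples are separate animals, so every p-value here refers to sample-to-sample spread, which may be technical. In whole liver, fewer cells of a type and less RNA per cell cannot be told apart.

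None of the 9 genes that could be tested differed between the genotypes at an adjusted p of 0.05 in limma, against 0.0645% of the 12395 genes tested (0.0323% in each direction, higher and lower). Before adjustment 2 of the 9 had p under 0.05, Cyp1a2 and Ahr, both higher in KO, where 11.8% of all genes tested passed (2.69% higher in KO and 9.07% lower). In none of the 9 did the KO and WT ranges separate, as they did in 2.79% of all genes tested. Cyp1a1 was too low for the filter of a mean of at least 0.5 FPKM and was not in that test. The log2 fold changes of the 9 ran from -0.16 for Cyp3a25 to 0.29 for Cyp1a2, with 6 above 0 and a median of 0.13, beside a median of -0.05 and 34.9% above 0 among all genes tested. The 9 hepatocyte markers tested leaned the same way, with 7 above 0, 2 below 0 and a median of 0.12. With median-of-ratios scaling 7 of the 9 genes lay above 0 (median 0.19), as did 8 of the 9 hepatocyte markers (median 0.18). At that scaling 3 of the 9 genes had an unadjusted p under 0.05, Rxra being added (limma unadjusted p = 0.0221, adjusted p = 0.397). Shares over all genes were not computed at that scaling. These counts describe genes chosen with earlier results known and carry no test of their own.

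**Figure D1:**
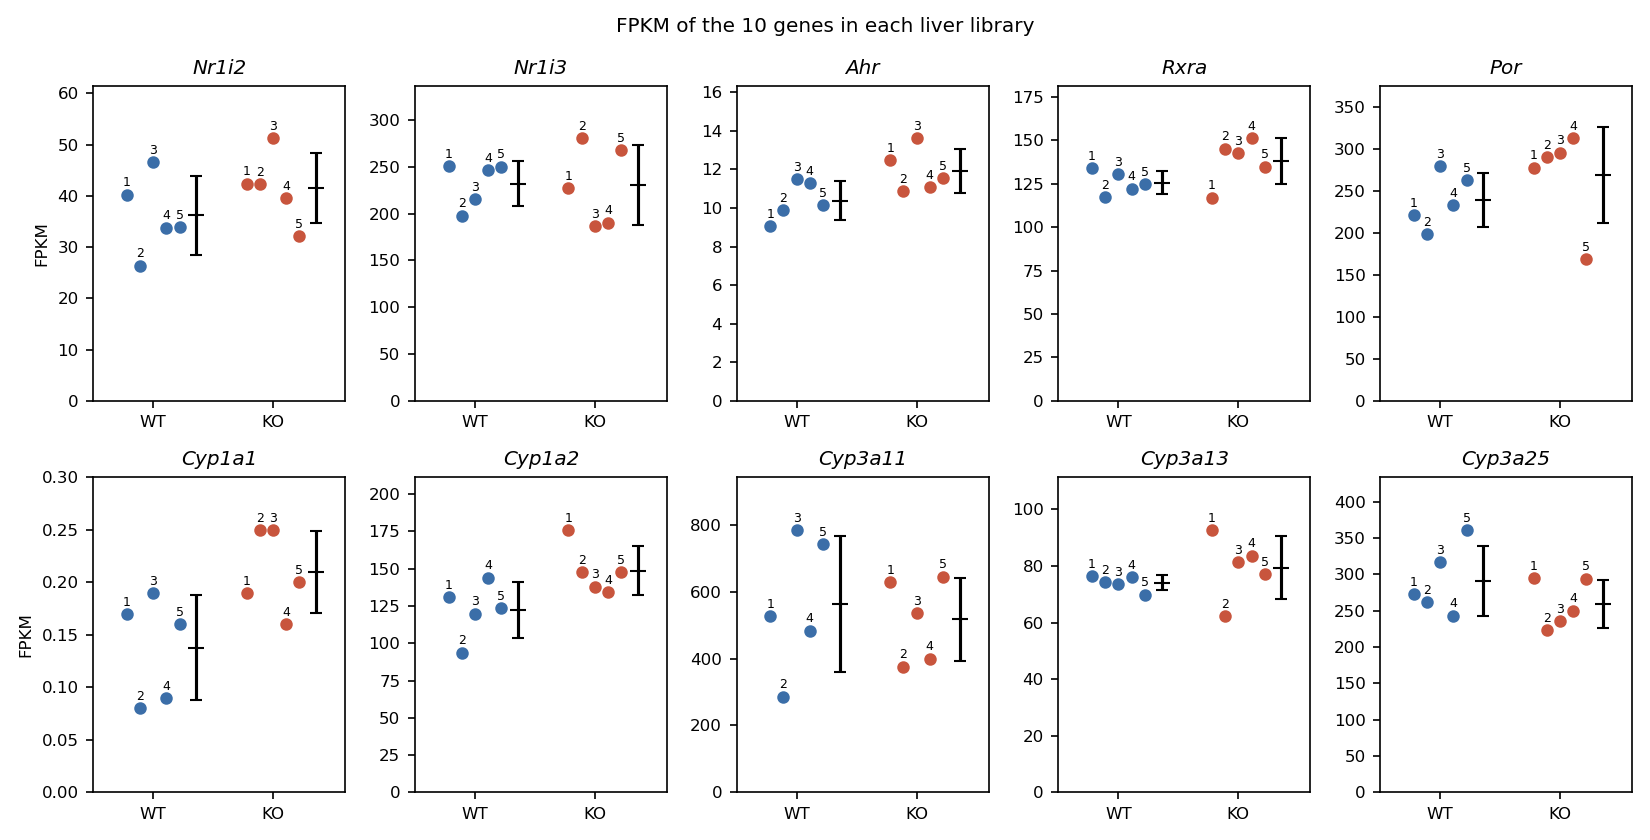
FPKM (y axes, linear, from 0, one scale per gene) of each gene in the 5 WT (blue) and 5 KO (red) libraries, with replicate numbers above the points and black bars for the mean and SD. The ranges overlap in every panel, 4 of 5 KO points lie above every WT point for Rxra and Cyp3a13 and 3 of 5 for Cyp1a2 and Ahr, and WT replicate 2 is the lowest WT point in 7 of the 10 panels.

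On the FPKM scale, Cyp3a11 was the most abundant of the 10, at 540 FPKM over the 10 libraries (SD 161), and lay above Cyp3a25, at 275 FPKM (SD 42.1), in 10 of 10 libraries. Cyp3a25, Por (254 FPKM, SD 46.6) and Nr1i3 (231 FPKM, SD 32.9) had overlapping ranges, with Cyp3a25 above Por in 7 of 10 libraries and Por above Nr1i3 in 7 of 10. Cyp1a2 (135 FPKM, SD 21.6) and Rxra (132 FPKM, SD 11.8) could not be ordered, Cyp1a2 being the higher in 4 of 10 libraries. Below them, each with a range apart from its neighbours, came Cyp3a13 at 76.7 FPKM (SD 8.14), Nr1i2 at 38.8 FPKM (SD 7.37), Ahr at 11.1 FPKM (SD 1.29) and Cyp1a1 at 0.174 FPKM (SD 0.0568). Messages of the enzymes thus spanned the whole order, and among the receptors the CAR message was the most abundant and the Ahr message the least.

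Among the receptors, Ahr came nearest to a difference. It stood at 9.07, 9.87, 11.5, 11.3 and 10.16 FPKM in WT replicates 1 to 5 and at 12.47, 10.88, 13.6, 11.08 and 11.53 FPKM in KO replicates 1 to 5. All 5 KO livers were above the WT mean and 3 were above every WT liver, but KO replicates 2 and 4 lay inside the WT range. The means were 10.4 ± 1.02 and 11.9 ± 1.13 FPKM (SD, n = 5 each), a log2 fold change of 0.19 (SE 0.09, 95% CI 0.00 to 0.38). It did not pass (limma adjusted p = 0.413, unadjusted p = 0.0463; exact permutation p = 0.0635). Ahr (ENSMUSG00000019256) lies on the minus strand of chromosome 12, 35497974 to 35535038 (GRCm38).

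Nr1i2, whose product PXR responds to drugs and bile acids, was at 40.2, 26.4, 46.6, 33.8 and 33.9 FPKM in WT and at 42.4, 42.2, 51.2, 39.5 and 32.15 FPKM in KO, replicates 1 to 5. The groups overlapped over most of their width, with WT replicate 2 lowest of all and KO replicate 3 highest. Its means were 36.2 ± 7.61 and 41.5 ± 6.83 FPKM (SD, n = 5 each), a log2 fold change of 0.21 (95% CI -0.12 to 0.53; limma adjusted p = 0.624), which was 0.10 without WT replicate 2. The gene lies on the minus strand of chromosome 16, 38248323 to 38294824.

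Nr1i3, which encodes CAR, was almost level between the genotypes, with 232 ± 24.1 FPKM in WT livers and 230 ± 43 FPKM in KO livers (SD, n = 5 each). The log2 fold change was -0.02 (95% CI -0.29 to 0.24; limma adjusted p = 0.955), an interval that holds changes from 0.82-fold to 1.18-fold. KO livers fell on both sides of the WT range: KO replicates 3 and 4, at 186 and 190.3 FPKM, were below every WT liver, and KO replicates 2 and 5, at 280.1 and 267 FPKM, were above every WT liver. Nr1i3 (plus strand of chromosome 1, 171213970 to 171220701) shares 2160 of the 3270 exon bases of its coding transcripts, 66.1%, with Tomm40l on the opposite strand. Tomm40l itself had 2.38 ± 1.21 FPKM in WT livers and 2.68 ± 0.762 FPKM in KO livers. No source used here states a strand setting for the counting, and without one the reads of the shared bases cannot be told apart.

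Rxra, the common partner of PXR and CAR, was the steadiest receptor gene in WT, between 117 and 134 FPKM. In KO it was at 145, 142, 151 and 135 FPKM in replicates 2 to 5, all above every WT liver, whereas KO replicate 1, at 116.9 FPKM, was below every WT liver. The means were 126 ± 6.56 and 138 ± 13.2 FPKM (SD, n = 5 each; log2 fold change 0.13, 95% CI -0.03 to 0.29; limma adjusted p = 0.506). Rxra lies on the plus strand of chromosome 2, 27676440 to 27762957.

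Por, the single reductase that feeds electrons to microsomal P450 enzymes, was at 221, 198, 279, 233 and 263 FPKM in WT replicates 1 to 5. In KO replicates 1 to 5 it was at 278, 289.9, 296, 313 and 169 FPKM. KO replicates 2 to 4 were above every WT liver, and KO replicate 5 was the lowest of all 10. The log2 fold change was 0.15 (95% CI -0.20 to 0.49; limma adjusted p = 0.752). Without KO replicate 5 it was 0.31 (limma adjusted p = 0.232, unadjusted p = 0.00749), and without WT replicate 2 it was 0.08. Por lies on the plus strand of chromosome 5, 135670033 to 135735326.

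Cyp1a2, the main Cyp1a enzyme of normal liver, had the largest difference of the 9. WT replicates 1 to 5 were at 131, 93.6, 119.9, 144 and 123 FPKM and KO replicates 1 to 5 at 176, 148, 138, 134 and 148 FPKM. All 5 KO livers exceeded the WT mean, 3 exceeded every WT liver, and 4 of 5 WT livers were below every KO liver, so the overlap came from WT replicate 4. The mean was 122 ± 18.5 FPKM in WT and 149 ± 16.4 FPKM in KO (SD, n = 5 each), 1.22-fold higher (95% CI 1.04 to 1.44). It did not pass over all genes (limma adjusted p = 0.309, unadjusted p = 0.0202; exact permutation p = 0.0317). The log2 fold change of 0.29 was 0.20 without WT replicate 2, the lowest liver (adjusted p = 0.409). Over the 21 refits at other settings it ran from 0.20 to 0.35, with an unadjusted p under 0.05 in 20 and an adjusted p from 0.277 to 0.481.

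Cyp1a1, the Cyp1a enzyme that strong aryl hydrocarbon receptor ligands raise in many tissues, was hardly expressed. It was at 0.17, 0.08, 0.19, 0.09 and 0.16 FPKM in WT and at 0.19, 0.25, 0.25, 0.16 and 0.2 FPKM in KO, replicates 1 to 5. At the estimated depths and a transcript of 2621 to 2697 bases, that is about 4 to 11 fragments in a WT library and about 10 to 15 in a KO library, so counting error alone is large. All 5 KO livers were above the WT mean and 3 above every WT liver. With the filter lowered to a mean of 0.1 FPKM the log2 fold change was 0.16 (95% CI -0.05 to 0.36; limma adjusted p = 0.578; exact permutation p = 0.0635), a scale that understates changes of values this far below the pseudocount of 0.5. Cyp1a2 was 988 ± 397 times as high as Cyp1a1 in WT and 729 ± 159 times in KO (SD, n = 5 each).

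The Cyp1a genes stand head to head on chromosome 9, Cyp1a2 on the minus strand (57676937 to 57683703) and Cyp1a1 on the plus strand (57687928 to 57703824). These are GENCODE spans, and that of Cyp1a1 begins upstream of the RefSeq start from which its promoter is counted. Of their 50-base stretches in coding transcripts, 3.43% of those of Cyp1a1 and 4.97% of those of Cyp1a2 also occur in the other gene, so reads from these stretches could have been split between them. The core of the site bound by the aryl hydrocarbon receptor and ARNT, GCGTG on either strand, occurs in the 250 bases before the RefSeq start of 28.2% of 32851 mouse promoters. It has 1 match before Cyp1a1, 3 before Por, and none before Cyp1a2 or the other genes with a promoter. The stretch before Cyp1a1 is shown because this gene is the classic target of the receptor (chr9:57697553-57697602, plus strand, GRCm38.p6, RefSeq, bases 60 to 11 before the start, match in capitals).
Cyp1a1: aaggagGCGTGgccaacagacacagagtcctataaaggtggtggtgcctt
A match describes letters in this window, not binding.

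**Figure D2:**
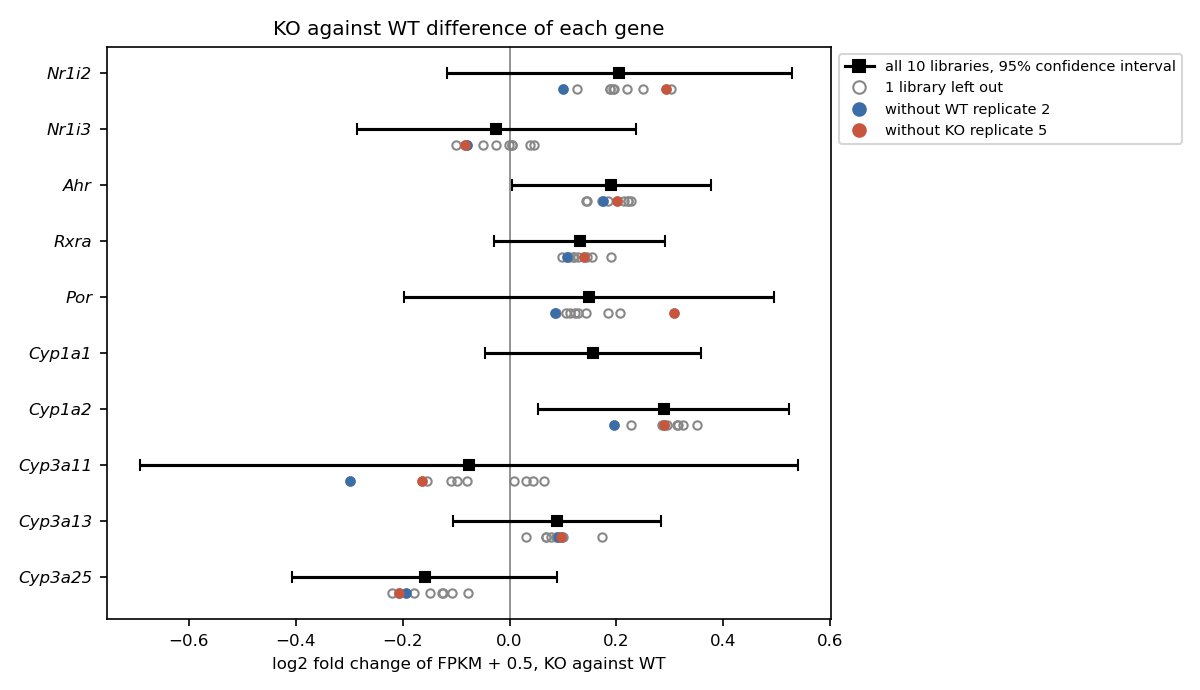
Log2 fold change of FPKM + 0.5, KO against WT (x axis), for each gene (y axis). Black squares and bars give the value and 95% confidence interval over the 10 libraries (Cyp1a1 from the fit with the filter at 0.1 FPKM, with no refits shown), and circles give the value with 1 library left out, blue for WT replicate 2 and red for KO replicate 5. Only the intervals of Ahr and Cyp1a2 lie above 0 before adjustment, Por moves to 0.31 without KO replicate 5, and Cyp3a11 has the widest interval.

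Cyp3a11, the mouse gene usually used to read PXR activity, varied most of the 9 tested genes on the log2 scale. WT replicates 1 to 5 were at 527, 286, 784, 483 and 741 FPKM, a 2.74-fold spread, and KO replicates 1 to 5 at 628, 376, 535, 399 and 645 FPKM, a 1.72-fold spread. Every KO liver lay within the WT range. Its residual SD of 0.49 on the log2 scale was at the 98.1st percentile of all tested genes averaging 5 FPKM or more. The means were 564 ± 203 and 517 ± 125 FPKM (SD, n = 5 each), a log2 fold change of -0.08 (limma adjusted p = 0.941). The 95% CI held changes from 0.62-fold to 1.45-fold. The sign turned when WT replicate 3 or 5 or KO replicate 2 or 4 was left out, and the log2 fold change was -0.30 without WT replicate 2.

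Cyp3a25, a second PXR-pathway P450 of liver, was at 273, 261, 316, 243 and 361 FPKM in WT and at 295, 223, 235, 250.1 and 294 FPKM in KO, replicates 1 to 5. No KO liver exceeded the WT maximum, and KO replicates 2 and 3 were below every WT liver. The means were 291 ± 47.6 and 259 ± 33.2 FPKM (SD, n = 5 each; log2 fold change -0.16, 95% CI -0.41 to 0.09; limma adjusted p = 0.621). Cyp3a13 is also expressed in the gut. Its WT livers lay within 69.8 to 76.4 FPKM, a 1.09-fold spread, and its KO livers between 62.3 and 92.7 FPKM. Of the KO livers, 4 exceeded every WT liver and KO replicate 2 was below all of them. The means were 74 ± 2.62 and 79.4 ± 11.1 FPKM (SD, n = 5 each; log2 fold change 0.09, 95% CI -0.11 to 0.28; limma adjusted p = 0.739).

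Across the 10 libraries Cyp3a11 and Cyp3a25 tended to be high and low together, and after adjustment rho passed but r did not. Among the exceptions, WT replicate 2 was lowest for Cyp3a11, at 286 FPKM, but not for Cyp3a25, at 261 FPKM. KO replicate 3 had 535 FPKM of Cyp3a11 and 235 FPKM of Cyp3a25. Pearson's r of log2(FPKM + 0.5) was 0.73 (permutation p = 0.0172, adjusted over 3 Cyp3a pairs p = 0.0517) and Spearman's rho 0.76 (permutation p = 0.0147, adjusted p = 0.0442). Without WT replicates 2 and 3, the libraries farthest from the median of Cyp3a11, r was 0.87 (exact permutation p = 0.00407), and with the genotype means subtracted it was 0.76. For Cyp3a13 no correlation passed, with r of 0.17 (permutation p = 0.636) and rho of 0.03 (permutation p = 0.945) against Cyp3a11, and r of 0.07 (permutation p = 0.842) and rho of -0.03 (permutation p = 0.947) against Cyp3a25. Without the 2 farthest libraries these r values were 0.26 and -0.03, and with median-of-ratios scaling they were 0.33 and 0.28 (0.78 for Cyp3a11 with Cyp3a25). The 3 pairs were chosen after their values were seen, and the difference between their correlations was not tested. Of the 50-base stretches of Cyp3a11, 339 of 2295 (14.8%) occur in other genes, 145 of them in Cyp3a41a, and of those of Cyp3a25, 523 of 1999 (26.2%) do, 488 of them in Cyp3a59, whereas Cyp3a13 shares none. The part of shared reads in the relation was not tested.

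**Figure D3:**
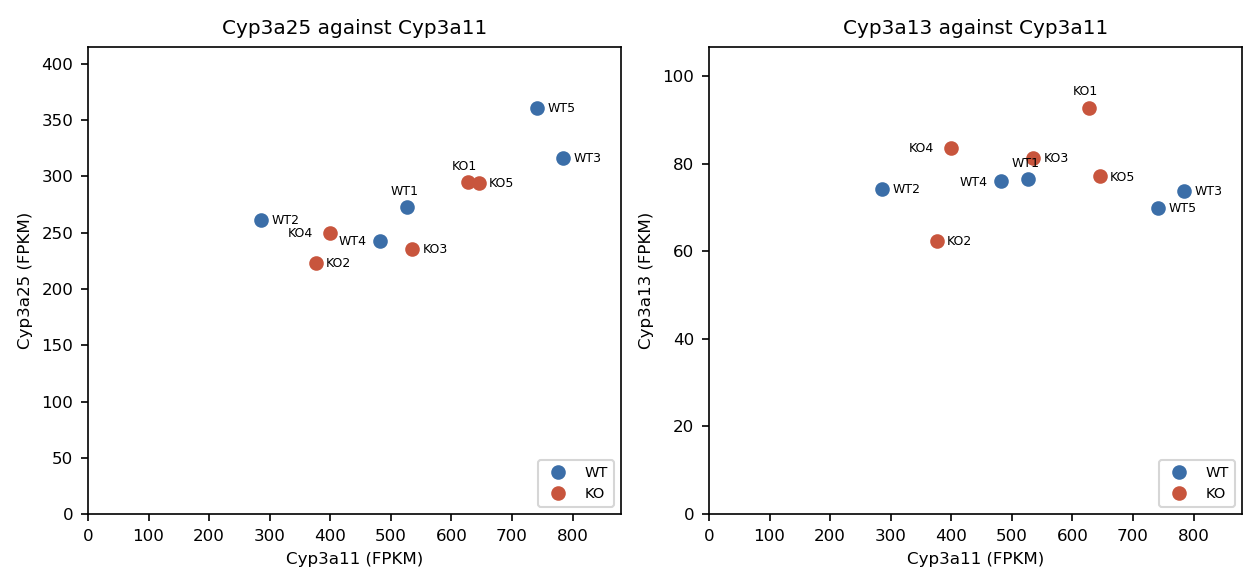
FPKM of Cyp3a25 (left) and Cyp3a13 (right) on the y axes against FPKM of Cyp3a11 on the x axes, all linear from 0, 1 point per library, blue for WT and red for KO. Cyp3a25 tends to be high where Cyp3a11 is high (r of 0.73 on the log2 scale), while Cyp3a13 stays between 62.3 and 92.7 FPKM across the range of Cyp3a11.

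These 3 genes are all on the minus strand of chromosome 5. Cyp3a11 (145854426 to 145879964) and Cyp3a25 (145977194 to 146009618) belong to 1 cluster and are 97.2 kb apart, whereas Cyp3a13 (137892932 to 137921619) lies 7932.8 kb from Cyp3a11. Their promoters are shown because PXR and CAR act on Cyp3a genes through pairs of nuclear receptor half-sites. Each line gives bases 250 to 111 before the RefSeq start in GRCm38.p6 (for Cyp3a11 this start lies inside the GENCODE span), on the minus strand, with capitals for the half-sites AGGTCA and AGTTCA read on either strand (TGACCT and TGAACT are their reverse strands). The positions are chr5:145879965-145880104 for Cyp3a11, chr5:146009729-146009868 for Cyp3a25 and chr5:137921730-137921869 for Cyp3a13.
Cyp3a11: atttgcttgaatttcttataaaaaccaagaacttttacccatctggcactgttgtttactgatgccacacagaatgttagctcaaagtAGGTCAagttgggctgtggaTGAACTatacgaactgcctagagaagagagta
Cyp3a25: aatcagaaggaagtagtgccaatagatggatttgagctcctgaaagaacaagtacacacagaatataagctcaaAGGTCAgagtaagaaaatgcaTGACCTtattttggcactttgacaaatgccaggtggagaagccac
Cyp3a13: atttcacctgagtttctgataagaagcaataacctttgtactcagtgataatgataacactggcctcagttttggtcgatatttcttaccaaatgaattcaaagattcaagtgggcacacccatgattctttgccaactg
In the whole 250 bases, Cyp3a11 holds 1 AGGTCA and 1 AGTTCA, Cyp3a25 holds 2 AGGTCA, and Cyp3a13 holds neither. Rxra also holds 2 AGGTCA, on opposite strands, before 1 of its start sites and no half-site before the other. Nr1i2, Nr1i3, Por, Cyp1a1 and Cyp1a2 hold neither half-site. AGGTCA occurs at least once in the same window of 14.0% of the 32851 promoters and AGTTCA in 11.8%, so a single match is common. The share of promoters with 2 half-sites in the window was not computed. In Cyp3a11 and in Cyp3a25 the matches lie on opposite strands. Whether their order and spacing are those of a pair used by PXR or CAR was not tested. These matches, too, describe letters and not binding.

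The Cyp3a family as a whole summed to 2630 ± 647 FPKM in WT and 2520 ± 581 FPKM in KO over 9 genes (SD, n = 5 each). Cyp3a11 made up 21.1 ± 4.01% of this sum in WT and 20.8 ± 4.32% in KO, Cyp3a25 11.6 ± 3.04% and 10.7 ± 2.42%, and Cyp3a13 3.01 ± 1.01% and 3.28 ± 0.88%. The largest part, 58.6 ± 4.01% and 58.7 ± 5.81%, was listed under the near-identical female-typical genes Cyp3a41a and Cyp3a41b. The ratio of Cyp3a11 to Cyp3a25 was 1.91 ± 0.504 in WT and 1.98 ± 0.313 in KO. Family make-up therefore differed by less than its spread between livers of 1 genotype. Other Cyp3a genes, 6 in the list and 5 tested, gave 0 past the test in either direction. Of these, 2 lay above 0, where 34.9% of all genes tested did, and the median log2 fold change was -0.02 (0.04 with median-of-ratios scaling). In WT and KO, respectively, Cyp3a44 was at 32.8 ± 21.9 and 38.6 ± 12.6 FPKM, Cyp3a59 at 24.5 ± 8.98 and 20.99 ± 3.01 FPKM, and Cyp3a41b at 735 ± 183 and 700.1 ± 224 FPKM.

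Whether P450 messages followed their sensors from liver to liver was asked for Nr1i2, Nr1i3 and Ahr against the 5 P450 genes, 15 relations over 10 libraries. None passed after adjustment over the 15 (lowest adjusted p = 0.148 for Pearson's r and 0.468 for Spearman's rho, permutation tests). The closest was Nr1i2 with Cyp1a1, r of 0.77 (permutation p = 0.00989) and rho of 0.66 (permutation p = 0.0433). This r was 0.74 with the genotype means subtracted and 0.80 with median-of-ratios scaling, but Cyp1a1 has only about 4 to 15 fragments per library. Without WT replicate 2 and KO replicate 3, the libraries farthest from the median of Nr1i2, it was 0.46 (exact permutation p = 0.258). PXR's own textbook target Cyp3a11 had r of 0.39 with Nr1i2 (permutation p = 0.265) and rho of 0.33 (permutation p = 0.348), and r was -0.06 without those 2 libraries. Ahr and Cyp1a2, receptor and target, had r of 0.53 (permutation p = 0.113) and rho of 0.53 (permutation p = 0.125). That r was 0.82 without WT replicate 1 and KO replicate 3 (exact permutation p = 0.0156, adjusted p = 0.234) but 0.21 with the genotype means subtracted. Nr1i3 had its largest value with Cyp3a13, r of -0.53 (permutation p = 0.117) and rho of -0.45 (permutation p = 0.192). That r was -0.54 with the genotype means subtracted, -0.25 with median-of-ratios scaling and -0.40 without KO replicates 3 and 4. In these 3 settings Nr1i3 with Cyp1a2, r of 0.38 over the 10 libraries, was at 0.55, 0.51 and 0.60.

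**Figure D4:**
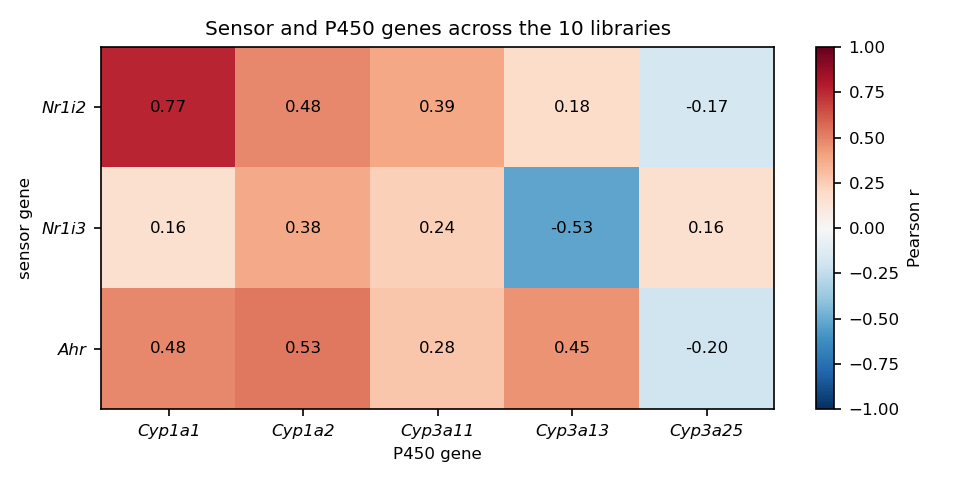
Pearson's r of log2(FPKM + 0.5) over the 10 libraries for each sensor gene (rows) with each P450 gene (columns), on a colour scale from -1 (blue) to 1 (red). The highest value is 0.77 for Nr1i2 with Cyp1a1 and the lowest -0.53 for Nr1i3 with Cyp3a13, and none of the 15 passed after adjustment.

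WT replicate 2 was the lowest WT liver for 7 of the 10 genes: Nr1i2, Nr1i3, Rxra, Por, Cyp1a1, Cyp1a2 and Cyp3a11. It was also the lowest WT liver for the pericentral hepatocyte genes Glul, at 244 FPKM against 393 to 438 FPKM, and Cyp2e1, at 5871 FPKM against 7487 to 7869 FPKM. Alas1, the first enzyme of haem synthesis and a PXR and CAR target, was at 108 FPKM there and at 283 to 368 FPKM in the other WT livers. Cyp1a2 and Por are themselves messages of pericentral hepatocytes in normal liver. In KO livers Glul was at 422 to 513 FPKM and Cyp2e1 at 6496 to 7418 FPKM. Of the 9 pericentral markers 3 had a log2 fold change above 0, where 34.9% of all genes tested did. At an unadjusted p under 0.05 in limma 2 of the 9 were higher in KO, where 2.69% of all genes were. Among the 9, Slc1a2 ran from 44.2 to 62.25 FPKM in WT and from 62.92 to 70.31 FPKM in KO, without overlap. Of the 9 periportal markers 6 lay above 0, with a median log2 fold change of 0.31 and sums of 4320 to 6615 FPKM in WT and 5586 to 7657 FPKM in KO. At that unadjusted p 4 of the 9 periportal markers were higher in KO. Over the 10 libraries 0 markers of either list passed after adjustment, and with 1 library left out at most 1 periportal marker did. The part of this make-up in the differences of the 10 genes was not tested. Without WT replicate 2, 0 of the 9 genes passed as well.

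Among the genes whose pattern over the 10 libraries was most like that of Cyp1a2, out of 7064 genes compared, were Aco1 (Pearson r of 0.93), the pericentral glutamate transporter gene Slc1a2 (0.92) and Lace1 (0.89). For Cyp3a11 they were Erh (0.94), Palmd (0.94) and Ildr2 (0.90). These are the highest values of many and are a description only. Genotype means were not subtracted, so they mix differences between and within genotypes. For Slc1a2 and Lace1 every KO library was above every WT library (lowest KO 62.92 and 5.02 FPKM, highest WT 62.25 and 4.99 FPKM). WT replicate 2 was the lowest of the 10 libraries for Cyp1a2, Aco1, Slc1a2 and Lace1.

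The wider pathway was read from 8 lists, in which 0 genes passed the limma test in either direction over all genes, also with any 1 library left out. Among PXR and CAR targets, 24 of 25 were tested, 18 lay above 0 and the median log2 fold change was 0.11, beside 34.9% above 0 and a median of -0.05 over all genes. Without WT replicate 2 there were 15 above 0 with a median of 0.07, and with median-of-ratios scaling 21 with a median of 0.17. Hepatocyte markers, a list of general liver cell genes, had 7 of 9 above 0 and a median of 0.12 over the 10 libraries (8 and 0.18 with median-of-ratios scaling). Shares over all genes were not computed at that scaling. The aldo-keto reductase gene Akr1b7 had 0.486 ± 0.288 FPKM in WT livers and 1.06 ± 0.308 FPKM in KO livers (log2 fold change 0.69, limma adjusted p = 0.208). The carboxylesterase gene Ces2a was at 43.9 ± 3.37 and 50.7 ± 5.42 FPKM (limma adjusted p = 0.35), and the glutathione transferase gene Gsta1 at 1.23 ± 1.01 and 0.44 ± 0.22 FPKM (limma adjusted p = 0.459). At an unadjusted p under 0.05 this list held 2 of 24 genes, both higher in KO, where 11.8% of all genes passed in either direction and 2.69% were higher. These were Akr1b7 and Ces2a. The Cyp2b genes of the list had log2 fold changes of 0.63 (Cyp2b10), 0.10 (Cyp2b9) and -0.03 (Cyp2b13), none at an unadjusted p under 0.05 in limma.

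Other partners and targets of the aryl hydrocarbon receptor, a list without the Cyp1a genes described above, numbered 12. Of these 9 were tested, 0 lay above 0, where 34.9% of all genes did, and the median log2 fold change was -0.10 (with median-of-ratios scaling 2 lay above 0 and the median was -0.04). At an unadjusted p under 0.05 it held 2 genes, both lower in KO, where 9.07% of all genes were lower at that p. Nqo1, a quinone reductase that both this receptor and NRF2 raise, had 7.64 ± 0.977 FPKM in WT livers and 5.89 ± 0.592 FPKM in KO livers (log2 fold change -0.35, limma adjusted p = 0.2). The receptor's cochaperone gene Ptges3 was at 42.2 ± 2.41 and 36.2 ± 4.09 FPKM (limma adjusted p = 0.267). Arnt, the receptor's DNA-binding partner, was at 10.0 ± 0.547 and 9.33 ± 0.688 FPKM (limma adjusted p = 0.634). Cyp1b1, Ahrr and Aldh3a1 were below the filter.

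Of the RXR family and its partner receptors, 13 of 14 were tested, with 5 above 0 and a median of -0.08, and 1 gene, lower in KO, at an unadjusted p under 0.05. For this list and the next, the shares over all genes tested were 34.9% above 0 and, at that p in limma, 2.69% higher and 9.07% lower. Ppard, a fatty acid receptor, was at 3.15 ± 0.542 and 3.76 ± 0.357 FPKM, and the bile acid receptor gene Nr1h4 at 61.8 ± 5.92 and 52.8 ± 9.6 FPKM in WT and KO (limma adjusted p = 0.435 and 0.448). Pparg, which promotes fat storage, was at 8.47 ± 1.41 and 5.63 ± 1.13 FPKM (limma adjusted p = 0.143). Among 8 electron transfer partners of P450 enzymes, 3 lay above 0 and 1, higher in KO, had an unadjusted p under 0.05, with a median of -0.02 (0.04 with median-of-ratios scaling). The cytochrome b5 reductase gene Cyb5r3 had 100.3 ± 3.37 FPKM in WT livers and 115 ± 13.3 FPKM in KO livers (limma adjusted p = 0.319). The P450-binding haem proteins Pgrmc1 and Pgrmc2 were at 437 ± 28.2 and 23.7 ± 1.69 FPKM in WT and at 402 ± 28.6 and 21.3 ± 2.02 FPKM in KO (limma adjusted p = 0.4997 and 0.46).

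Coregulators of PXR and CAR numbered 12, of which 5 lay above 0 and 1 higher and 2 lower had an unadjusted p under 0.05, with a median of -0.03 (0.02 with median-of-ratios scaling). Beside the lists of this paragraph, 34.9% of all genes tested lay above 0, and at that p in limma 2.69% were higher and 9.07% lower. The coactivator gene Ppargc1a was at 3.76 ± 0.569 and 5.4 ± 1.43 FPKM in WT and KO, the corepressor gene Ncor1 at 47.3 ± 2.4 and 41.1 ± 4.66 FPKM, and the glucocorticoid receptor gene Nr3c1 at 17.2 ± 1.46 and 14.8 ± 1.54 FPKM (limma adjusted p = 0.285, 0.325 and 0.338). Clock factors, which set daily rhythms of Por, Alas1 and P450 genes in liver, had 15 of 16 tested, 5 above 0, 1 in each direction with an unadjusted p under 0.05, and a median of -0.12 (-0.24 without WT replicate 2). Their summed level was 185 to 291 FPKM in WT and 164 to 214 FPKM in KO, and the output factor Dbp ran from 2.71 to 46.2 FPKM in WT and from 1.13 to 17.3 FPKM in KO. Nr1d2 was at 16.3 ± 4.1 and 11.4 ± 2.55 FPKM, Nr1d1 at 63.9 ± 13.6 and 46.7 ± 13.3 FPKM and Cry1 at 3.27 ± 0.33 and 4.51 ± 1.32 FPKM (limma adjusted p = 0.319, 0.425 and 0.367). The sources used here state no harvest times, and the part of the clock in the P450 values was not tested. Acute phase genes, which mark inflammation, a state that lowers P450 messages, had 12 of 14 tested, 4 above 0, 1 lower at an unadjusted p under 0.05, and a median of -0.06 (6 above 0 with median-of-ratios scaling). Orm2 was at 16.9 ± 3.87 and 12.1 ± 1.92 FPKM, Orm3 at 2.05 ± 1.03 and 3.06 ± 0.661 FPKM and Saa1 at 48.6 ± 14.6 and 37.9 ± 11.4 FPKM (limma adjusted p = 0.311, 0.448 and 0.639).

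**Figure D5:**
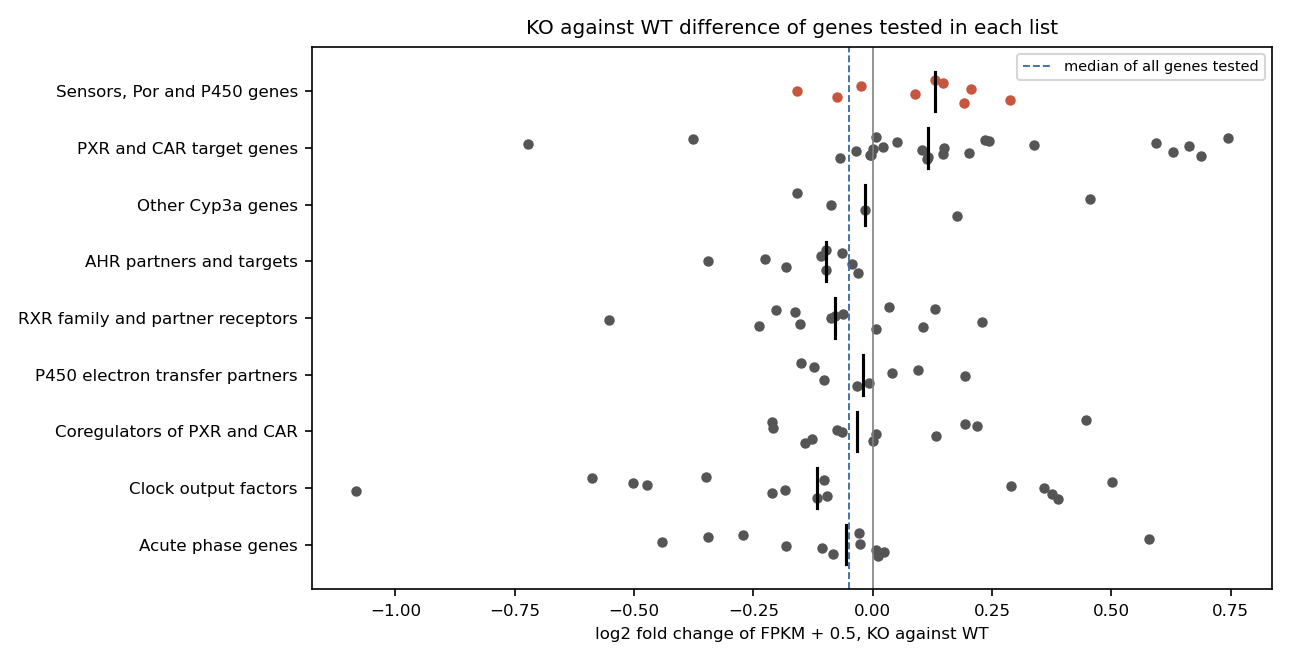
Log2 fold change of FPKM + 0.5, KO against WT (x axis), of each gene tested, by list (y axis). Points are genes, red for the 9 tested genes described here, black ticks are list medians, and the dashed line is the median of all 12395 genes tested, -0.05. The medians lie between -0.12 for clock factors and 0.13 for the 9 genes, and no point passed the test.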

How the data were processed

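Liver RNA was measured in 5 KO and 5 WT samples with 1 library per sample. Values were deposited as FPKM, made by the authors per library and rounded to 2 decimals. The tools DESeq, DESeq2, RSEM, STAR and R 4.0.2 and the build mm10 are named in the submitters' processing notes, without roles; annotation and strand setting are unstated there. The table has 2 columns with no name or value, which were not used. FPKM carry no counts, so log2(FPKM + 0.5) was tested with limma 3.58.1 in R 4.3.3 (trend, robust prior, two-sided, Benjamini-Hochberg over 12395 genes averaging 0.5 FPKM or more, threshold 0.05), which was tested on simulated data. Fold changes on that scale understate changes of low genes. Exact permutation tests were two-sided over 252 regroupings, with a smallest possible p of 0.00794. Correlations used 100000 permutations, two-sided.

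Depth was fitted from genes with 1 transcript of 350 to 1000 bases, so that 94.2% to 97.3% of low values came within 0.1 of a whole fragment. Gene positions and shared 50-base stretches are from GENCODE M21 (GRCm38, the assembly behind mm10). RefSeq promoters (GRCm38.p6) were matched by symbol for 9 of 10 genes, all but Ahr.

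The genes, the 8 pathway lists and the 12 marker lists (193 genes, 192 matched) were chosen with earlier results of these data known. Genes named are the 10, Etnppl, up to 3 of lowest p in each pathway list and the 3 most like Cyp1a2 and Cyp3a11. Chosen after their values were seen were Alas1, Glul, Cyp2e1, Dbp, Tomm40l, the Cyp2b genes and those below the filter or at 0. Alternatives were 2 pseudocounts, 3 filters, 3 scalings, no trend or robust prior, array weights, a replicate block and each library left out. Plots used matplotlib 3.10.9 in Python 3.11.15.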

Additional observations from a re-analysis of the deposited data

Results flagged for a closer look

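In groups of 5, a library was singled out where its gap to the nearest other library took up more than 0.71 of the group's range. Chance does this in about 1 in 20 groups, and 70 groups (35 genes in each genotype) were examined, so some of the 5 cases below are what chance gives. Por in KO replicate 5, at 168.76 FPKM, was below the other KO livers, at 278 to 313 FPKM. Akr1b7 in KO replicate 3 was at 1.59 FPKM, above the next KO liver at 1.02 FPKM. Gsta1 in KO replicate 4 was at 0.06 FPKM, below the next at 0.44 FPKM. Pparg in KO replicate 5 was at 7.59 FPKM, above the next at 5.44 FPKM. Ncor1 in KO replicate 2 was at 32.98 FPKM, below the next at 41.9 FPKM. No cause was tested for any of them.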

How the results depend on the processing

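In all 21 refits, 0 of the members tested passed. Of 190 refits of single genes, 181 kept their sign and stayed above the threshold, and 9 changed sign, all of Nr1i3 or Cyp3a11. Nr1i3 was at 0.032 with median-of-ratios scaling and at -0.100 to 0.047 with 1 library left out, and Cyp3a11 at -0.30 to 0.065 with 1 library left out. The count over all genes, 8, was 5 with no filter, 5 without trend and robust prior, 18 with array weights, 5 with the replicate block and 4 to 18 with 1 library left out (18 without WT replicate 2), and the cause was not tested. The labels do not say what a replicate number marks. Deviations of same-numbered replicates correlated at -0.02 to 0.20, over 0.1 in 2 of 5 pairs. Among the 5 samples of the other genotype, 5 of 10 samples correlated best with their own number, a count that was not tested. The replicate block changed no call of the 9 genes. Of 75 refits of the 15 relations, 6 changed sign: without the 2 farthest libraries, Nr1i2 with Cyp1a2 (-0.036) and Cyp3a11 (-0.058) and Nr1i3 with Cyp3a25 (-0.22); with median-of-ratios scaling, Nr1i2 and Ahr with Cyp3a25 (0.059 and 0.062); and with genotype means subtracted, Ahr with Cyp3a25 (0.068). Depth limits Cyp1a1, at 4 to 15 fragments per library.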
